A study of Mus musculus with 4 samples.

Results

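The Trim genes encode the tripartite motif proteins, and their RNA was measured in mouse embryos at the 2-cell stage by RNA sequencing. Members were the genes of the deposited expression table whose symbol is Trim followed by a number and at most 1 letter, which gave 47 genes of 18714. All embryos had the genotype Nelfb dTAG/dTAG on an Outbred/ICR background, so that both copies of Nelfb, a subunit of the negative elongation factor NELF, carried a degron tag. Zygotes from natural matings of homozygous parents were kept for 30 hours in KSOM, either with 500 nM dTAG-13, a small molecule that directs the tagged protein to degradation, or with 0.01% DMSO as the vehicle. Each group had 2 libraries, and each library was a pool of 3 embryos. The tag was shared by all 4 libraries, so the comparison sets degrader against vehicle within tagged embryos.

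A tripartite motif protein usually starts with a RING domain, which gives it ubiquitin ligase activity, followed by B-box zinc fingers and a coiled coil. The part after the coiled coil differs between members and sets their roles, from a PHD finger and bromodomain that read histones to a SPRY domain that binds proteins or a set of NHL repeats that binds RNA. In the egg and early embryo the best studied member is Trim28, the corepressor that zinc finger proteins of the KRAB class use to silence retroviral elements and to protect imprinted loci. Trim43 genes are known as transcripts of the cleavage stages, and their human counterpart is a target of the transcription factor DUX4.

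The regions around the start sites of 4 genes are shown because they stand for the groups that moved in opposite directions. Sequences are from RefSeq on GRCm38.p6, which held a window for 37 of the 47 genes, and run 5′ to 3′ on the gene's strand from 250 bases before to 50 bases after the start. Capitals mark 4 short motifs searched on both strands, the TATA box letters TATAAA, the GC box letters GGGCGG, the CCAAT box and the letters TAATCC of homeobox proteins of the bicoid class.
Trim43a (chr9:88580641-88580940, plus strand): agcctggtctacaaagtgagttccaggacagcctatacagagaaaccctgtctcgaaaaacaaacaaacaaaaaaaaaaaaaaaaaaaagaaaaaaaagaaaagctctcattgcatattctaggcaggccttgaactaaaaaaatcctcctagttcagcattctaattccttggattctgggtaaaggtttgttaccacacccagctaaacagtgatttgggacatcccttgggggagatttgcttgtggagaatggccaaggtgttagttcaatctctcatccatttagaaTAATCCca
Trim28 (chr7:13023902-13024201, plus strand): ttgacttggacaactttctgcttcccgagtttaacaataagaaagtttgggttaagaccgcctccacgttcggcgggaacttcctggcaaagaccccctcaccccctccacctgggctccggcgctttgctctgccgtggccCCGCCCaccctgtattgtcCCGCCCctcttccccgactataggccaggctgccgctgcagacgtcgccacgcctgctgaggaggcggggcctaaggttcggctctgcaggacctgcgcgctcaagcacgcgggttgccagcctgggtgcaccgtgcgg
Trim60 (chr8:65018639-65018938, minus strand): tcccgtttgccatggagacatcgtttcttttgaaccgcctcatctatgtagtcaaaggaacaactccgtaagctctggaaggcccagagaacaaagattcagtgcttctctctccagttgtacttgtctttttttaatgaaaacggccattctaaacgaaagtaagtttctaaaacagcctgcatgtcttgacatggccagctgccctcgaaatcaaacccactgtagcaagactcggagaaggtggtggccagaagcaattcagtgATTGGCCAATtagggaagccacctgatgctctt
Trim75 (chr8:64987595-64987894, minus strand): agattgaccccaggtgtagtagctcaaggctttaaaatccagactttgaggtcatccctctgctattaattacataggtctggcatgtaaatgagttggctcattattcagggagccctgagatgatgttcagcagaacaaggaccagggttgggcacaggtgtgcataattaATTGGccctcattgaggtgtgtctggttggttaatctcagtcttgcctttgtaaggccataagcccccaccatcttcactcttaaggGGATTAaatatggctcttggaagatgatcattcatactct
The window of Trim28 held 64.0% G and C and 23 CpG dinucleotides, with 2 matches to the GC box letters, which occur in 35.9% of all 32544 RefSeq windows. Trim43a and Trim75, which differed in direction, had 39.0% and 44.7% G and C, with 1 and 0 CpG dinucleotides, and each held TAATCC after the start, found in 7.06% of windows. The medians over all windows were 53.0% G and C and 7 CpG dinucleotides. Trim60 had 46.0% G and C, 8 CpG dinucleotides and a back-to-back pair of CCAAT letters on opposite strands (CCAAT occurs in 37.4% of windows), and TATAAA, found in 13.6% of windows, was in none of these 4. The window of Trim61 is the same stretch as that of Trim60, because RefSeq starts both genes at the same base.

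The libraries held 38112685 and 33897568 reads in genes under dTAG-13 and 18923479 and 16522506 under DMSO, so 1 read was worth 0.622 to 0.697 scaled reads under dTAG-13 and 1.20 to 1.62 under DMSO. A gene without reads may have had up to 3 reads by counting error, or 1.87 to 4.87 scaled reads by library. Of the 15 markers fixed for the 2-cell embryo 14 had a row, and their sum was 160718 and 188364 scaled reads under dTAG-13 and 224108 and 242257 under DMSO. Dppa3 alone had 110338 and 127232 under dTAG-13 against 80510 and 110125, and did not pass an adjusted p under 0.05 (limma). Zscan4d, Tdpoz3, Usp17la, Tcstv1, Tcstv3, Ooep, Nlrp5 and Zar1 were lower at that threshold, where 9.79% of all genes were, and no marker of this list was higher. Markers of other cells summed to less than those of the 2-cell embryo but were not all low, and their sums differed between the groups. Those of cumulus and granulosa cells, with 6 of 15 in the table, summed to 2056 and 1810 scaled reads under dTAG-13 against 608 and 355, mostly from Amhr2. Sperm markers (6 of 10) summed to 905 and 587 against 3188 and 3948, almost all from Odf2, while the protamine Prm2 had at most 29.2 scaled reads. Oviduct markers (5 of 7) summed to 8419 and 7673 against 5523 and 4886, mostly Epcam. Blood markers (5 of 8) summed to 572 and 427 against 1159 and 1153, and in the DMSO libraries most of that was Hba-a1, with 1062 and 1041 scaled reads. Their part in the results was not tested.

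Trim43 genes rose under dTAG-13 and dominated the family, the chromatin genes Trim33 and Trim28 rose, and Trim60, Trim75, Trim15, Trim31 and Trim23 fell. Of the 41 members whose mean reached 10 scaled reads, 5 were higher, against 8.94% of all genes tested, and 5 were lower, against 9.79%, at a Benjamini-Hochberg adjusted p under 0.05 by limma. Both counts lie near the background. At an unadjusted p under 0.05 there were 9 higher and 10 lower, against 18.6% and 20.6% of all genes. Unadjusted counts of the lists below are to be read against these shares, and adjusted counts by limma against 8.94% and 9.79%. edgeR called 4 and 4 members, where 6.42% and 7.17% of genes were called, and DESeq2 called 7 and 8, where 15.1% and 16.6% were. The median log2 fold change was 0.44 over the 41 members and -0.10 over all 15978 genes. Over the members it was 0.12 with DESeq2, 0.17 with edgeR and 0.22 at a pseudocount of 10. Groups did not overlap for 16 members that were higher and 12 that were lower, where 32.2% and 34.5% of all genes did so. By adjusted p in the authors' deposited table, of 41 members 5 rose and 4 fell at the same threshold, where 7.56% and 8.47% of its genes did, and all 9 were also called in the same direction by limma. In pools of whole embryos, fewer cells or embryos that express a gene and less of its RNA per cell cannot be told apart.

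**Figure D1:**
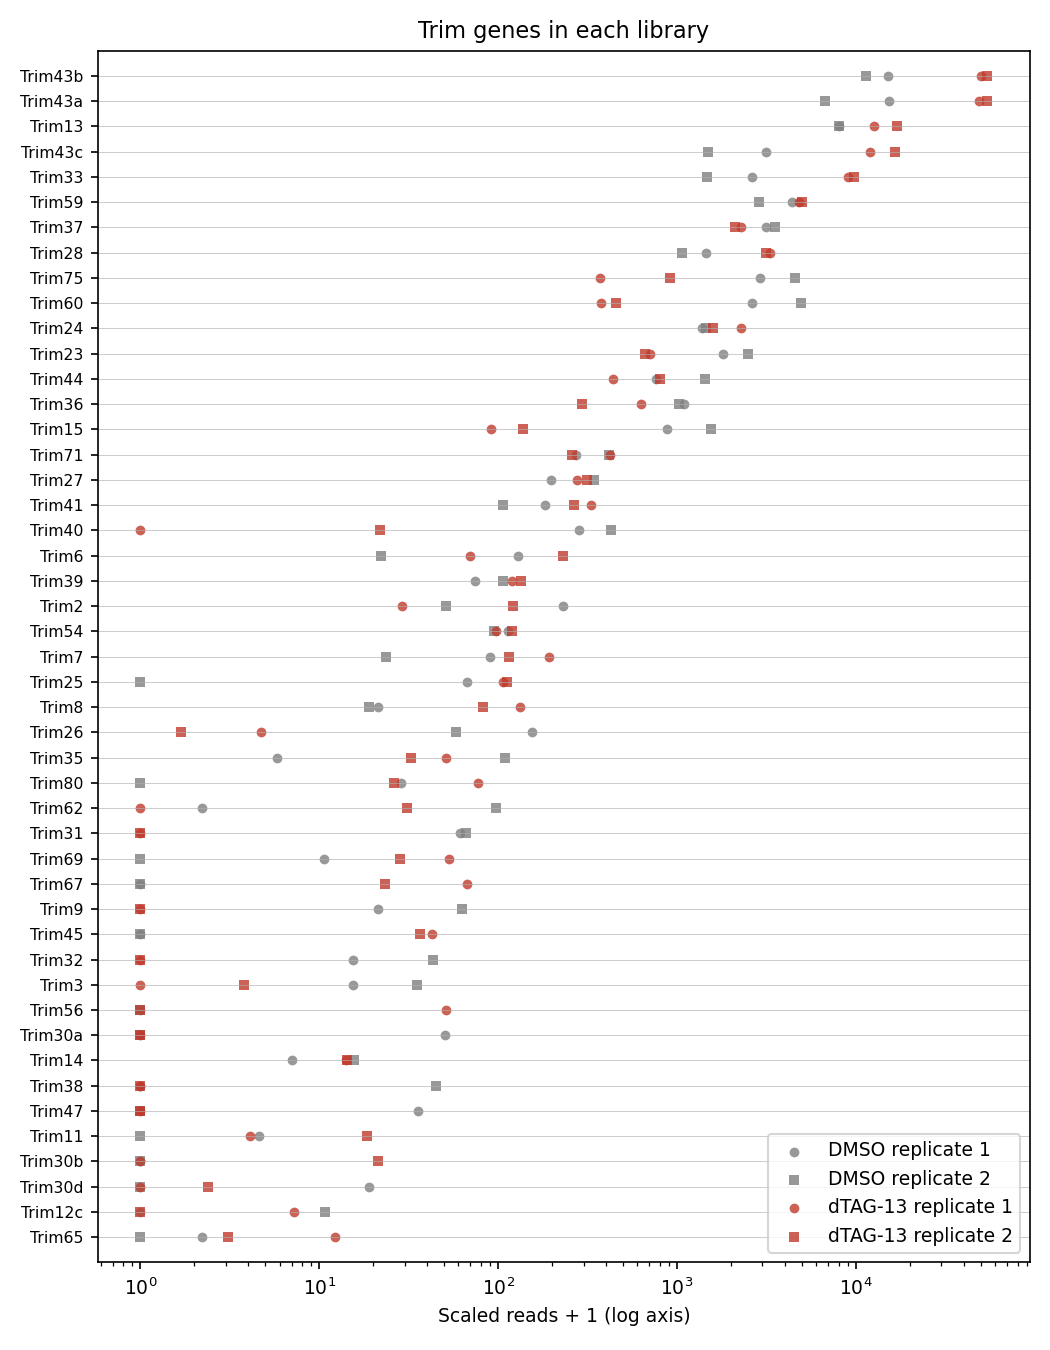
Scaled reads plus 1 (log axis) of the 47 Trim genes in each of the 4 libraries, ordered by mean, in red for dTAG-13 and grey for DMSO. Trim43b, with 50150 and 54300 scaled reads under dTAG-13, heads the list, and 20 genes have a library at 0, drawn at 1.

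These calls rested on all 4 libraries. Without either dTAG-13 library limma called 0 of the 41 members and 0 of all 15978 genes, and other tools were not run on these sets. Unadjusted p was under 0.05 for 6 members higher and 10 lower without replicate 1 (8.44% and 13.6% of all genes) and for 5 and 9 without replicate 2 (8.81% and 15.5%). Without DMSO replicate 1 there were 2 members higher and 4 lower, against 2.25% and 4.84% of all genes. Without DMSO replicate 2 there were 0 higher by limma and 4 lower, against 0.294% and 4.15%, and 7 were higher at an unadjusted p under 0.05, against 16.7%. Most of the 10 calls were lost in each of the fits without a DMSO library. Trim9 and Trim32, which had 0 reads in both dTAG-13 libraries, passed in both of these fits. For the 10 called members the sign of the fold change was the same in all 4 fits that left out 1 library. Scaling mattered as well. With libraries set to equal levels of 58 oocyte transcripts, the median of all genes moved to 2.01 and 19 members were higher and 1 lower, against 40.3% and 2.15% of all genes. With libraries set to equal mitochondrial transcripts the median of all genes was 0.79 and limma called 0 members and 0 genes, while 12 members higher and 7 lower had an unadjusted p under 0.05, as had 26% and 8.78% of all genes. Directions and calls below are those of the authors' scaling unless another is named. Only Trim23 among the 10 called members changed sign under another scaling.

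The 3 Trim43 genes, which encode RING proteins with a SPRY domain and lie on chromosome 9, were the most strongly expressed group. Trim43a (ENSMUSG00000090693.3, bases 88580891 to 88588819 in GRCm38) had 48540 and 54074 scaled reads under dTAG-13 and 15383 and 6753 under DMSO. Trim43b (ENSMUSG00000079162.8, 89084624 to 89092835) had 50150 and 54300 against 15139 and 11413. Both dTAG-13 libraries lay above both DMSO libraries for each gene, and DMSO replicate 2 was the lowest library for each. Trim43c (ENSMUSG00000067399.10, 88839164 to 88848190) had 12051 and 16548 against 3156 and 1479, in the same order. The log2 fold changes were 2.33 ± 0.42 for Trim43a (SE, n = 2 per group; adjusted p = 0.0304, limma), 1.99 ± 0.23 for Trim43b (adjusted p = 0.0219) and 2.71 ± 0.43 for Trim43c (adjusted p = 0.0258). Without 1 library they ranged from 1.74 to 2.92, from 1.79 to 2.19 and from 2.16 to 3.25.

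Per kilobase of annotated exon, Trim43a and Trim43b ranked first among the 47 members by the mean over the 4 libraries. Their means were 15719 and 14479 scaled reads per kb, above 99.6% and 99.5% of genes tested, and Trim43c followed Trim13 with 4175. In the DMSO means Trim60 (1410) stood above Trim43c (1164), and in DMSO replicate 2 Trim13 (4859) stood above Trim43a (3404). Summed over the 3 genes, the dTAG-13 libraries held 110741 and 124921 scaled reads and the DMSO libraries 33677 and 19645. The group made up 73.9% and 74.1% of all Trim reads under dTAG-13 and 50.3% and 35.0% under DMSO. All Trim genes together took 0.632% and 0.714% of reads against 0.294% and 0.209%. The longest annotated coding transcripts of the 3 genes are 97.2% to 98.2% identical in pairs, and 40.2% of the 50-base windows of Trim43a occur unchanged in Trim43b, so the split of reads among them is uncertain. In Trim43c, 38.6% of exon bases also lie in 9330159M07Rik on the opposite strand, and the libraries were not stranded. That neighbour rose too, from 743 and 484 to 2141 and 1663 scaled reads (log2 fold change 1.65 ± 0.38, adjusted p = 0.0446, limma).

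Trim60 and Trim75, neighbours on chromosome 8 that encode RING proteins with a SPRY domain, moved the other way. Trim60 (ENSMUSG00000053490.7, 64999307 to 65018584) had 375 and 455 scaled reads under dTAG-13 and 2631 and 4899 under DMSO. Trim75 (ENSMUSG00000071089.2, 64980884 to 64987831) had 369 and 907 against 2917 and 4561. For both genes the groups were far apart, and DMSO replicate 2 was the highest library. Trim60 fell by 3.12 ± 0.42 on the log2 scale (adjusted p = 0.0224) and Trim75 fell by 2.65 ± 0.54 (adjusted p = 0.0360, limma, n = 2 per group). Under the scaling on oocyte transcripts the 2 values were -0.89 (adjusted p = 0.117) and -0.43 (adjusted p = 0.476), where the median gene stood at 2.01, so both calls were lost. Trim61 is not analysed here. In GENCODE M21 it lies within the span of Trim60 on the same strand, its exons share 2.47% of the exon bases of Trim60, and reads of the 2 genes may not be fully separable.

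Among the 6 genes listed for germline and cleavage stages, the 5 measured all passed, 3 higher and 2 lower. Over all genes 8.94% were higher and 9.79% lower. The list was chosen with earlier results of these data known, and reads of the 3 Trim43 genes are not fully separable. The count is therefore no result about the list. The nearest neighbours of the 2 loci were read out as well. Zfp949, which lies 9.83 kb from Trim43a, rose by 3.11 ± 0.26 on the log2 scale (adjusted p = 0.0219, limma). Apela, the gene of a secreted peptide 9.83 kb from Trim60, fell by 2.18 ± 0.51 (adjusted p = 0.0455). On the outer side of Trim75, Tmem192 had a log2 fold change of 1.39 ± 0.61 and did not pass (adjusted p = 0.161), and beyond Trim43b 4930579C12Rik had 2.50 ± 1.07 (adjusted p = 0.152). Between the Trim43 genes Mthfsl fell by 2.32 ± 0.52 (adjusted p = 0.0427), opposite to its neighbours. These neighbours were chosen after the fold changes of the Trim genes were known.

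**Figure D2:**
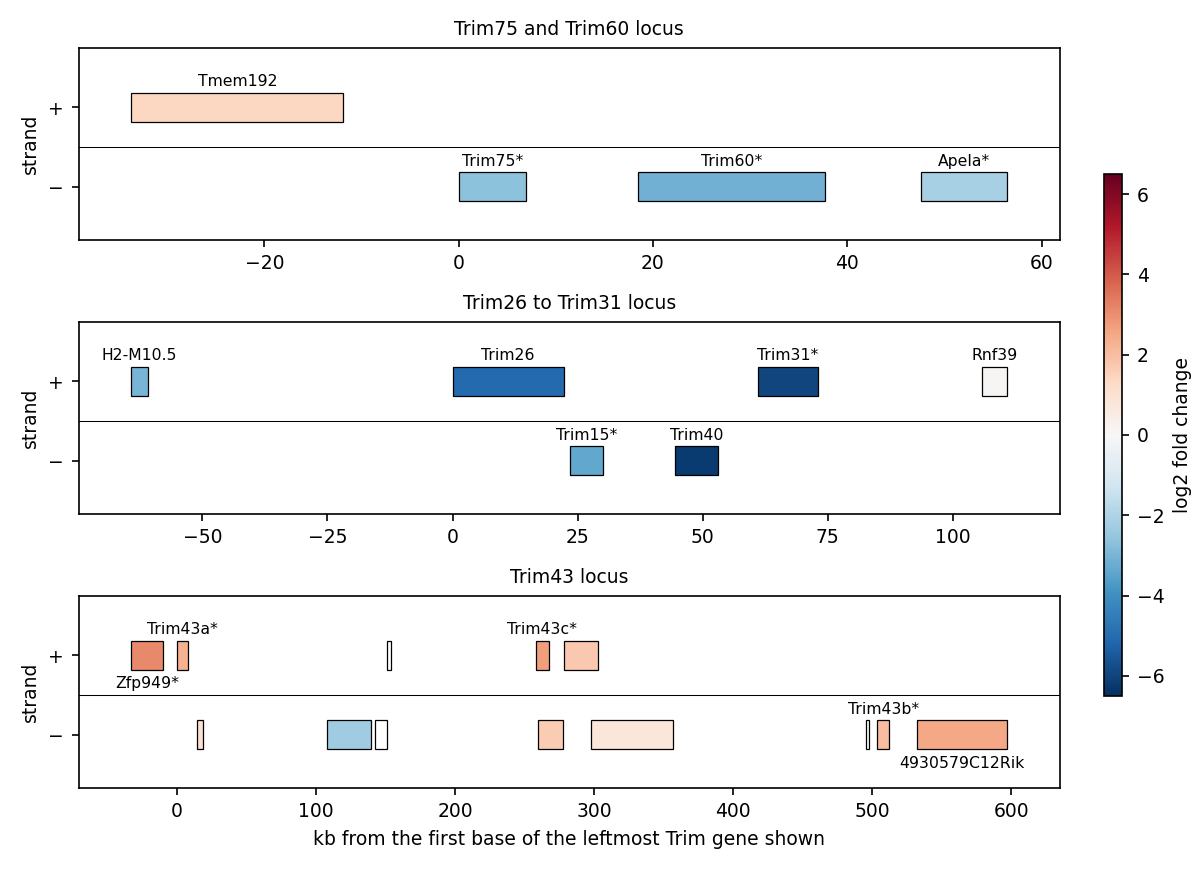
Genes of 3 loci drawn to scale by strand, with the distance in kb from the leftmost Trim gene on the horizontal axis and the log2 fold change (dTAG-13 minus DMSO) as colour; white genes were not tested and an asterisk on a labelled gene marks an adjusted p under 0.05 (limma). Trim75 and Trim60 (-2.65 and -3.12) and Trim26 to Trim31 (-6.22 to -3.38) are blue, and the 3 Trim43 genes (1.99 to 2.71) are red.

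The proteins of the TIF1 genes carry a PHD finger and a bromodomain and act at chromatin. All 3 genes were higher in both dTAG-13 libraries than in either DMSO library, and 2 of 3 passed. Over all genes tested 32.2% were higher without overlap and 8.94% passed as higher. Trim33, which reads modified histone H3 and acts with Smad proteins, had 9066 and 9772 scaled reads under dTAG-13 against 2632 and 1477 under DMSO. It rose by 2.25 ± 0.35 on the log2 scale (adjusted p = 0.0250, limma), and by 1.84 to 2.67 without 1 library. Trim28 had 3304 and 3124 scaled reads against 1447 and 1058, a difference larger than the spread within either group. It rose by 1.38 ± 0.30 (adjusted p = 0.0411), which became 0.0529 with edgeR. Trim24, a coregulator of nuclear receptors, had 2275 and 1594 against 1374 and 1443, and with a log2 fold change of 0.44 ± 0.32 it did not pass (adjusted p = 0.366). Per kilobase of exon the 3 genes had means of 585, 537 and 196 scaled reads per kb. Trim33 lies on chromosome 3, Trim28 on chromosome 7 and Trim24 on chromosome 6. The other gene of the list, Trim66, is not analysed here.

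Genes for proteins that work with Trim28 were looked at beside it. Of 19 tested, 4 rose, against 8.94% of all genes, 1 fell, against 9.79%, and 14 missed the threshold. The median was 0.56 against -0.10 for all genes. Setdb1, the histone H3 lysine methyltransferase that Trim28 recruits, had 2170 and 2091 scaled reads under dTAG-13 against 937 and 766, and rose by 1.33 ± 0.30 (adjusted p = 0.0442, limma). The deacetylase gene Hdac1 rose by 2.37 ± 0.34, the chromatin remodeller Atrx by 1.74 ± 0.24 and the remodeller Smarcad1, which binds Trim28, by 1.72 ± 0.29. Zfp57, the KRAB zinc finger protein that brings Trim28 to imprinted loci, fell by 1.62 ± 0.38, from 2272 and 3755 scaled reads under DMSO to 834 and 1077 under dTAG-13 (adjusted p = 0.0452). The heterochromatin protein genes Cbx1 and Cbx3 had log2 fold changes of -1.41 ± 0.39 and 1.41 ± 0.38 and did not pass (adjusted p = 0.0644 and 0.0587).

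In the region of the major histocompatibility complex on chromosome 17, Trim26, Trim15, Trim40 and Trim31 lie within 73.1 kb (36837134 to 36910214). Trim10, annotated between Trim15 and Trim40, is not analysed here. All 4, grouped here by position, had lower values in both dTAG-13 libraries than in either DMSO library, and 2 passed. Over all genes tested 34.5% were lower without overlap and 9.79% passed as lower. Trim15, a ligase with roles in focal adhesions and in antiviral signalling, had 90.2 and 137 scaled reads under dTAG-13 against 883 and 1549 under DMSO, and fell by 3.38 ± 0.52 on the log2 scale (adjusted p = 0.0246, limma). Under the scaling on oocyte transcripts its value was -1.17 (adjusted p = 0.105) and the call was lost. Trim31, which in mouse modifies the antiviral adaptor Mavs, had 0 reads in both dTAG-13 libraries and 60.0 and 64.9 scaled reads (50 and 40 reads) under DMSO. Against a floor of 3 reads per library, Trim31 was at least 31.6-fold lower, and the call (adjusted p = 0.0396) was lost with edgeR (0.0625) and with the replicate block (0.0597). In the authors' deposited table it had an adjusted p of 0.209.

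Trim40 had 0 and 20.9 scaled reads under dTAG-13 against 283 and 427 under DMSO, and its change of -6.22 ± 1.65 (log2) did not pass (adjusted p = 0.0582). It passed with DESeq2 (0.0036) and with the replicate block (0.0208), but not with edgeR (0.129) or in the authors' deposited table (0.261). Trim26, a regulator of interferon signalling, had 3.73 and 0.697 against 154 and 56.8, with -5.06 ± 1.27 (adjusted p = 0.0524). The sizes of both values depend on libraries with few or no reads. Farther along the chromosome Trim39, a ligase of cell cycle and apoptosis regulators, had 118 and 133 scaled reads against 73.3 and 106 and a log2 fold change of 0.50 ± 0.65. The list of this region, which leaves Trim26 to the immune regulators, had 4 tested genes with 0 higher, 2 lower and a median of -4.68. Over all genes 8.94% were higher and 9.79% lower. The nearest other genes with a row, H2-M10.5 and Rnf39, did not pass (adjusted p = 0.404 and 0.987, limma). H2-M10.5 had 63.3 scaled reads in DMSO replicate 2 and 0 elsewhere, and Rnf39 had 0 and 37.0 under dTAG-13 against 33.6 and 0. Such values are too low and scattered to tell whether these neighbours changed.

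Of the 4 members anchored in membranes or carrying an ARF or MATH domain, 1 was lower and 3 did not pass (median -0.07). Over all genes 9.79% were lower. Trim23, whose C-terminal part is a GTPase domain of the ARF family, had 705 and 664 scaled reads under dTAG-13 against 1799 and 2495. It fell by 1.63 ± 0.33 on the log2 scale (adjusted p = 0.0367, limma), whereas under the scaling on oocyte transcripts its value turned to 0.59 (adjusted p = 0.226), below the 2.01 of the median gene. Trim13, a ligase of the endoplasmic reticulum, came after Trim43a and Trim43b per kilobase, with a mean over the 4 libraries of 6906 scaled reads per kb. It had 12576 and 16929 scaled reads under dTAG-13 against 8059 and 8017 under DMSO, and its log2 fold change of 0.86 ± 0.24 missed the threshold (adjusted p = 0.0663), although it passed with DESeq2 (0.0149) and among genes with a mean of at least 50 (0.0465). Trim13 did not pass with edgeR (0.0785) or in the authors' deposited table (0.121). Trim59 had 4834 and 4982 against 4411 and 2878, with 0.46 ± 0.30 (adjusted p = 0.314). Trim37, a ligase of peroxisomes and centrosomes, had 2273 and 2102 against 3141 and 3532, with -0.61 ± 0.26 (adjusted p = 0.153).

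**Figure D3:**
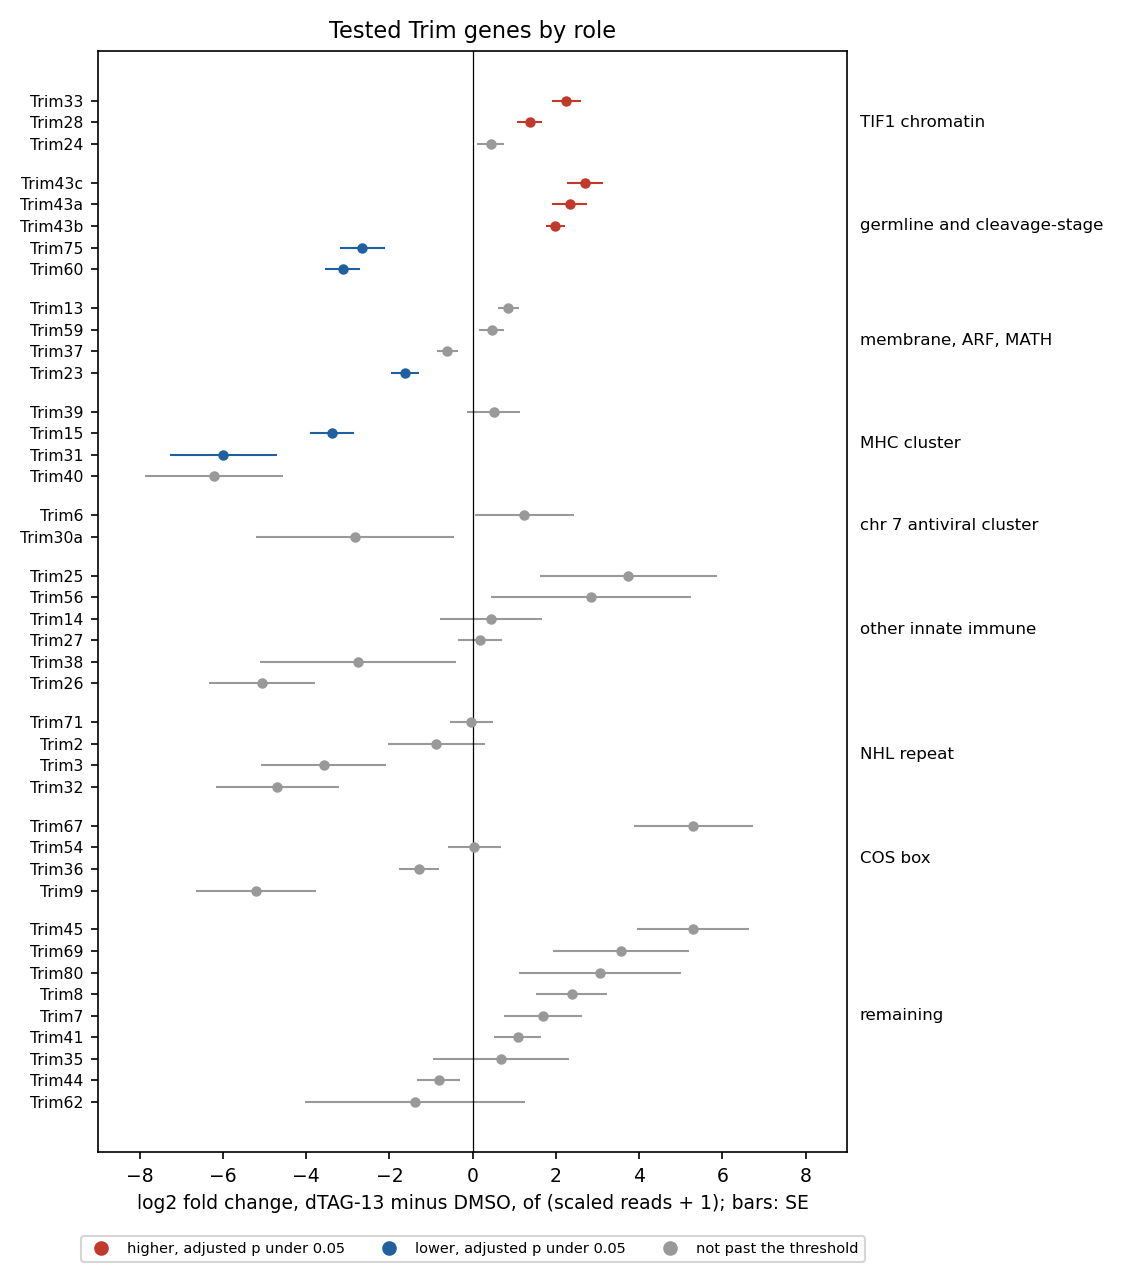
Log2 fold change (dTAG-13 minus DMSO, of scaled reads plus 1) with its standard error for the 41 tested Trim genes, grouped by role, n = 2 libraries per group. The 5 higher genes (red) lie between 1.38 and 2.71 and the 5 lower genes (blue) between -5.99 and -1.63; genes in grey did not pass an adjusted p under 0.05, and the long bars belong to genes with a library at or near 0.

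No member of the 2 lists for innate immunity passed by limma on all 4 libraries at a pseudocount of 1 under the authors' scaling. Trim26 passed at a pseudocount of 10. Under the scaling on oocyte transcripts Trim27 passed as higher (log2 fold change 2.39, adjusted p = 0.0177, limma), as did 40.3% of all genes. In the chromosome 7 cluster of 10 antiviral genes, 5 had a row and 2 were tested, Trim6 and Trim30a, and neither passed (median -0.79). Trim30a had 49.2 scaled reads in DMSO replicate 1 and 0 in the other libraries, so its value rests on that pool. Among 6 tested genes of other immune regulators 0 passed by limma, while 0 higher and 1 lower (Trim26) had an unadjusted p under 0.05; DESeq2 called Trim26 and edgeR called none of them. Trim25, the ligase that activates the RNA sensor RIG-I, had 106 and 111 scaled reads under dTAG-13 against 66.0 and 0 under DMSO, with a log2 fold change of 3.74 ± 2.13 that did not pass (adjusted p = 0.253). The authors' deposited table, which compares the group means, gave Trim25 a log2 ratio of 1.71. Trim27 had 275 and 314 against 197 and 343, with overlapping groups.

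Of 18 tested genes of RNA and DNA virus sensing, 0 rose by limma, 1 fell and 17 missed the threshold (median 0.78). Over all genes 8.94% rose and 9.79% fell. Unadjusted p was under 0.05 for 2 higher and 2 lower genes of the list. The gene that fell at the adjusted threshold was Ddx58, which encodes RIG-I. Ddx58 had 72.8 and 4.18 scaled reads under dTAG-13 against 801 and 1381 under DMSO. It fell by 5.75 ± 1.35 on the log2 scale (adjusted p = 0.0463, limma). Mavs, the adaptor downstream of RIG-I, had 258 and 345 against 49.2 and 0, with 5.40 ± 1.97, and did not pass (adjusted p = 0.111).

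Among 4 genes with NHL repeats 0 passed by limma, while 0 higher and 1 lower had an unadjusted p under 0.05 and a median of -2.23. Trim71, the mammalian counterpart of the worm protein LIN-41 and a regulator of mRNA in stem cells, had 420 and 257 scaled reads under dTAG-13 against 273 and 417. Its groups overlapped, with a log2 fold change of -0.04 ± 0.51. Trim32, a ligase with a known role in muscle, had 0 reads in both dTAG-13 libraries and 14.4 and 42.2 scaled reads (12 and 26 reads) under DMSO. That made Trim32 at least 14.3-fold lower against a floor of 3 reads per library, with an adjusted p of 0.0835. The bound was 7.28-fold without DMSO replicate 2. Trim2 and Trim3, both known from neurons, had means of 74.0 and 1.39 scaled reads under dTAG-13 against 140 and 24.2. The groups of Trim2 overlapped, with 28.0 and 120 scaled reads under dTAG-13 against 229 and 50.3. Trim3 had few reads in every library and did not pass (adjusted p = 0.149, limma).

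The genes with a COS box, through which such proteins bind microtubules, included 4 tested members, of which 0 passed by limma, while 1 higher and 2 lower had an unadjusted p under 0.05 (median -0.62). Trim36, known from the acrosome, had 629 and 295 scaled reads under dTAG-13 against 1088 and 1021, with a log2 fold change of -1.29 ± 0.49 (adjusted p = 0.120). The related neuronal genes Trim9 and Trim67 lay on opposite sides. Trim9 had 0 reads in both dTAG-13 libraries and 20.4 and 61.7 scaled reads under DMSO, at least 20.7-fold lower (adjusted p = 0.0634), a bound that was 10.3-fold without DMSO replicate 2 and 31.2-fold without DMSO replicate 1. Trim67 had 65.9 and 22.3 scaled reads under dTAG-13 and 0 in both DMSO libraries, at least 10.4-fold higher (adjusted p = 0.0596), and 5.27-fold was the bound without dTAG-13 replicate 1. DESeq2 called both genes, and edgeR called neither. In the authors' deposited table the adjusted p was 0.449 for Trim9 and 0.777 for Trim67.

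In the 9 tested members without a listed role 0 passed by limma, while 2 higher and 0 lower had an unadjusted p under 0.05 and a median of 1.69; edgeR and DESeq2 also called none of the 9. Trim45 had 41.7 and 35.6 scaled reads under dTAG-13 (67 and 51 reads) and 0 in both DMSO libraries, at least 9.12-fold higher, with an adjusted p of 0.0535. Trim8, a regulator of cytokine signalling, had 131 and 81.6 against 20.4 and 17.9, with a log2 fold change of 2.38 ± 0.85 (adjusted p = 0.107). Trim7, which binds glycogenin, had 192 and 114 against 88.9 and 22.7, with 1.69 ± 0.94 (adjusted p = 0.242). Trim44, which lacks a RING domain, had 436 and 799 against 761 and 1427, and its groups overlapped. The 6 members under the filter, Trim47, Trim11, Trim30b, Trim30d, Trim12c and Trim65, had at most 34.8 scaled reads in any library.

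Tripartite motif genes named otherwise and related genes with part of the motif were compared as a list of 8. Of these 7 were tested, 1 higher and 2 lower (median -1.45). Over all genes 8.94% were higher and 9.79% lower. Bspry, which has a B-box and a SPRY domain, rose from 1951 and 1062 scaled reads under DMSO to 6044 and 5707 under dTAG-13, by 2.03 ± 0.37 on the log2 scale (adjusted p = 0.0308, limma). Rfpl4, an oocyte protein with a RING and a SPRY domain, fell from 114361 and 203396 to 4038 and 5327, a log2 fold change of -5.04 ± 0.34 (adjusted p = 0.0219). Cmya5, a muscle protein of this class, fell by 1.45 ± 0.30, and Mid1, a microtubule-bound ligase, had -2.09 ± 0.53 and did not pass (adjusted p = 0.0537).

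RING ligases take ubiquitin from E2 enzymes, and those of the Ube2d class serve many of them. Of 13 such enzymes 0 were higher by limma, also at an unadjusted p under 0.05, 4 were lower and 9 missed the threshold (median -0.34). Ube2d3 had 17444 and 15723 scaled reads under dTAG-13 against 76600 and 111736 under DMSO, and fell by 2.48 ± 0.25 (adjusted p = 0.0219, limma). Ube2d1 had 4.98 and 0 scaled reads against 207 and 438, and Ube2d2a fell by 1.21 ± 0.25. Ube2n, which builds ubiquitin chains linked through lysine with its partner, had a log2 fold change of 0.31 ± 0.33 and did not pass. For comparison, of 58 oocyte transcripts tested 0 rose by limma, 36 fell and 22 missed the threshold (median -2.17), against the same shares of all genes. Unadjusted p was under 0.05 for 3 higher and 40 lower genes of this list.

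**Figure D4:**
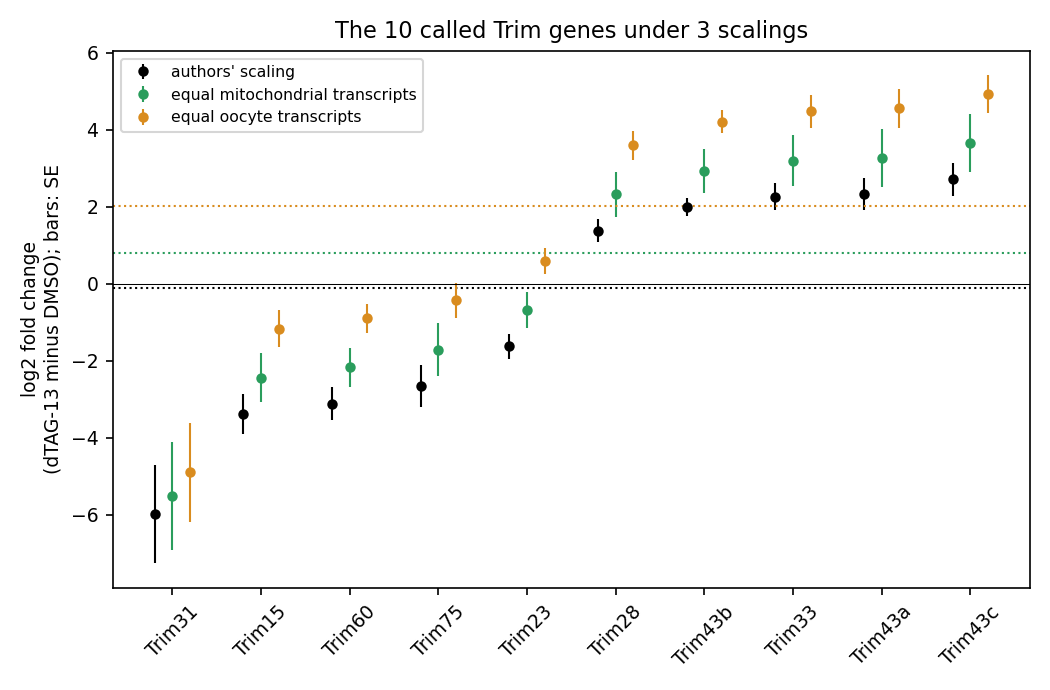
Log2 fold change (dTAG-13 minus DMSO) with its standard error for the 10 called Trim genes under the authors' scaling and with libraries set to equal mitochondrial or equal oocyte transcripts; dotted lines give the median of all genes under each (-0.10, 0.79 and 2.01). Each gene moves with the scaling, and Trim23 crosses 0, from -1.63 to 0.59 under the oocyte scaling.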

How the data were processed

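RNA sequencing was done on 4 libraries, 2 per group, grouped by the treatment label; table columns were matched to samples by treatment and number. Per the labels' protocols, the SMART-seq v4 kit was used on polyadenylated RNA, without strand. Bcl2fastq, Picard, HTSeq and DESeq are named in the submitters' processing notes, with build mm10, while an aligner is not given in the sources used here. Each signal value deposited by the authors is a gene's read count over its library's size factor, and dividing it back gave whole reads (tolerance 1e-04) for 100% of entries. The deposited log2 ratios, p-values and adjusted p-values are the authors' own.

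Genes averaging 10 or more scaled reads were kept (15978 of 18714), log2(value + 1) was taken, and the whole table was fitted with limma 3.58.1 in R 4.3.3 (eBayes with trend, two-sided). Fold changes are on that scale, which understates changes of genes low in all libraries and can overstate them where 1 library of a group is at 0. P was adjusted by Benjamini-Hochberg across the whole tested table. Alternatives used edgeR 4.0.16 and DESeq2 1.42.0 on recovered reads, other filters, pseudocounts and scalings, a replicate block and leaving out each library. Scripts were tested on simulated data. Separate parents or days of the pools are not stated, and the p-values therefore reflect only pool-to-pool spread, which may be technical. Floors cover counting error only. Gene positions and exon lengths are from GENCODE M21 (GRCm38), where all 47 IDs matched. Members and lists were chosen with earlier results of these data known. Genes were named by rule (Trim24, Trim28, Trim33, Trim75, called members, the 5 highest means and the 10 largest changes without overlap at a mean of at least 100); others named were chosen after their values were seen. The values of 1 gene of the lists are not reported here.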

Additional observations from a re-analysis of the deposited data

How the results depend on the processing

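Under the authors' scaling 5 Trim genes were higher and 5 lower with a median log2 fold change of 0.44. The counts stayed within 1.5 times of these without a filter (5 and 5), at a mean of at least 50 (6 and 5), at a pseudocount of 10 (5 and 7), under TMM scaling (5 and 5) and with edgeR (4 and 4). DESeq2 called 7 higher and 8 lower. Scaling on oocyte transcripts gave 19 higher, 1 lower and a median of 2.45, and scaling on mitochondrial transcripts gave 0, 0 and 1.31; the median was 0.12 with DESeq2 and 0.17 with edgeR. Without 1 library the counts ranged from 0 to 2 higher and from 0 to 4 lower, and the median from 0.17 to 0.47; the lone library of a group is then assumed to vary like the other group. Trim23 turned to 0.59 under the oocyte scaling; the cause of these shifts was not tested. With the replicate block 5 were higher and 5 lower and 9 of the 10 called genes were kept. Same-numbered libraries deviated with a correlation of -0.01, and only a number is shared, so no pairing was assumed. Over all genes edgeR called 1026 higher and 1146 lower, DESeq2 2406 and 2650, the oocyte scaling 6440 and 343, the mitochondrial scaling 0 and 0, and leaving out 1 library 0 to 360 and 0 to 773. The 6 members with means under 10 scaled reads were tested without the filter alone, and too few reads stand behind them to show small differences.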
